A study of Mus musculus with 9 samples.

Results

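Sphingosine 1-phosphate (S1P) genes were examined in RNA-seq libraries of CD45-Ter119-CD31+ endothelial cells (ECs) sorted from the bone marrow (BM) of wild type B6 mice for which the labels name no treatment and no age, 4 of the Sca-1+ and 5 of the Sca-1- fraction. The 9 genes, taken by name from the 46078 in the deposited table of read counts, encode the receptors S1pr1, S1pr2, S1pr3 and S1pr4, the sphingosine kinases Sphk1 and Sphk2, the exporters Spns2 and Mfsd2b and the lyase Sgpl1. Libraries are called by the number that ends their label (7, 13, 15 and 19 for Sca-1+ and 8, 10, 14, 16 and 22 for Sca-1-). The study sorted by flow cytometry on Sca-1, the product of Ly6a, which it uses to mark arterioles where present and sinusoids where low, and made each library from a small amount of total RNA by full-length cDNA amplification. The titles mark libraries 8, 15, 16 and 19 as wt, 13, 14 and 22 as CD452 and 10 with the digits of that mark alone, and library 7 with neither, and they give Sca-1+ library 15 and Sca-1- library 16 the same further number. As the labels do not explain these marks or say whether each library came from 1 mouse, p-values measure the spread between these libraries.

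S1P is a lipid made inside cells from sphingosine by the kinases, carried out of the cell by dedicated exporters and read by a family of G protein-coupled receptors. Endothelium exports S1P through Spns2, while red cells and platelets export it through Mfsd2b, and the resulting high S1P of blood and lymph guides lymphocyte exit from tissues and keeps vessels tight through S1pr1. Sgpl1, the lyase, breaks S1P down for good, and lipid phosphatases return it to sphingosine.

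The libraries held 21581653 to 25959818 counts, so that 3 counts, taken as the floor, corresponded to 0.0996 to 0.209 CPM (counts relative to library size, the latter scaled with the TMM factors of edgeR, 1.12 to 1.22 in Sca-1+ and 0.581 to 1.16 in Sca-1-). The floors cover counting error only, as reads carry no molecular identifiers. Ly6a was at 1133 ± 187 CPM (SD, n = 4) in Sca-1+ and 0.678 ± 0.524 CPM (SD, n = 5) in Sca-1- libraries. Of 15 general endothelial markers 13 were lower in Sca-1- libraries and none higher, among them Cdh5 (264 ± 27.2 against 7.14 ± 3.92 CPM), whereas Myct1 and Esam did not pass the test. Of 6 sinusoidal markers 5, such as Stab2, were also lower in Sca-1- libraries and 1, Lyve1, was higher. All 12 megakaryocyte and platelet markers were higher in Sca-1- libraries, where their summed level was 24389 to 101727 CPM against 30.2 to 83.4 CPM in Sca-1+ libraries, and 8 of 12 erythroid and 6 of 8 general leukocyte markers were higher too. Of 8 marrow stromal markers 3 were higher and 3 lower in Sca-1- libraries. Their summed level was 3328 to 42069 CPM there against 434 to 2364 CPM in Sca-1+ libraries. In sorted bulk samples, fewer cells of a type and less RNA per cell cannot be told apart. Sca-1+ ECs and Sca-1- ECs are used below as the label names of the sorted fractions. The names do not state that every cell in a fraction was endothelial.

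All 9 S1P genes had counts in every library and passed the filter on low counts. By edgeR's quasi-likelihood test (two-sided, adjusted p under 0.05 over the 15937 genes tested, here termed called), 7 of 9 were called, against 44.8% of all genes tested. Of these, 3 (S1pr1, S1pr3 and Spns2) were higher in Sca-1+ ECs, against 23.3% of all genes, and 4 (S1pr2, Sphk1, Sphk2 and Mfsd2b) were lower, against 21.4%. In CPM the fractions did not overlap in 5 of the 9, against 43.6% of all genes tested, a count that depends on the scaling. With 9 genes, these shares are a description and not a test of the group. With the 15 endothelial markers as the scaling reference, which moved the median log2 fold change of all genes by -4.17, 0 of the 9 genes were higher in Sca-1+ ECs and 8 were lower. Scaling by library size alone raised that median by 0.35 and changed no call among the 9 genes.

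**Figure D1:**
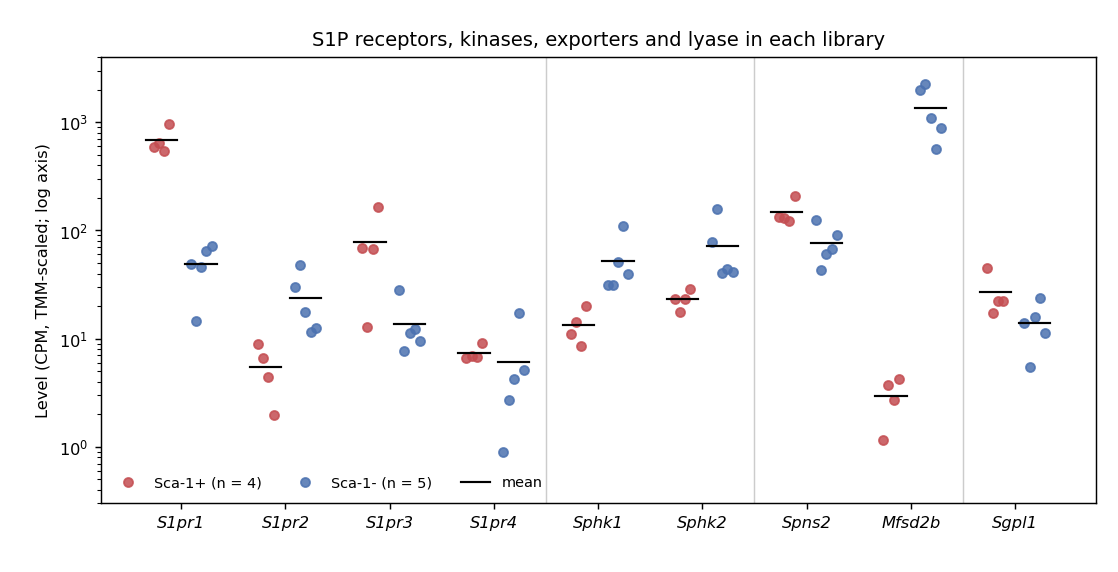
Level of each of the 9 S1P genes (CPM with TMM-scaled library sizes, log axis) in the 4 Sca-1+ and 5 Sca-1- libraries, 1 point a library, with the mean as a line. The fractions lie furthest apart for Mfsd2b, at 1.16 to 4.26 CPM in Sca-1+ and 569 to 2239 CPM in Sca-1- libraries, and for S1pr1, whose Sca-1+ libraries sit above all Sca-1- libraries on this scale.

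Among the receptors, S1pr1 (ENSMUSG00000045092, GRCm38 chromosome 3 from 115710433 to 115715072), which couples to Gi and holds the endothelial barrier, was at 595, 641, 544 and 959 CPM in Sca-1+ libraries 7, 13, 15 and 19. In Sca-1- libraries 8, 10, 14, 16 and 22 it was at 49.2, 14.6, 46.4, 64.8 and 71.5 CPM. Every Sca-1+ library was above every Sca-1- library, and library 10 was the lowest of its fraction. S1pr1 rose 13.9-fold in Sca-1+ ECs (log2 fold change 3.80 with a standard error of 0.43, edgeR adjusted p = 1.1e-04), a difference that went to -0.21 (adjusted p = 0.55) with the endothelial markers as the scaling reference. Set against Cdh5 in the same library, S1pr1 counts per kilobase of exon were 2.53 to 4.81 times those of Cdh5 in Sca-1+ and 6.81 to 13.5 times in Sca-1- libraries, with no overlap.

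S1pr3 (ENSMUSG00000067586, chromosome 13 from 51408639 to 51422797), found on endothelium and on vascular smooth muscle, was at 69.6, 12.8, 67.4 and 166 CPM in Sca-1+ libraries 7, 13, 15 and 19. It was at 28.2, 7.75, 11.2, 12.3 and 9.53 CPM in Sca-1- libraries 8, 10, 14, 16 and 22. Sca-1+ library 13 fell inside the Sca-1- range, and the other 3 Sca-1+ libraries were above it. S1pr3 was 5.73-fold higher in Sca-1+ ECs (log2 fold change 2.52 with a standard error of 0.63, edgeR adjusted p = 0.0082), which turned to -1.62 (adjusted p = 0.034) with the endothelial markers as the reference. Without Sca-1+ library 19 the log2 fold change was 1.86 (adjusted p = 0.030), and without it and Sca-1- library 10 the call was lost (1.64, adjusted p = 0.070). Exons of S1pr3 share 45 bases with Gm32834 on the opposite strand, and strand use in counting is not stated. Of 10 smooth muscle and pericyte markers 7 were higher and none lower in Sca-1+ ECs, and their summed level was 860, 574, 1249 and 1582 CPM in Sca-1+ libraries 7, 13, 15 and 19 and 20.2 to 79.2 CPM in Sca-1- libraries. None of the 10 was at 0 throughout a fraction. Among Sca-1+ libraries, library 13 was the lowest and library 19 the highest for both these markers and S1pr3, whereas libraries 7 and 15 were in opposite order. Among Sca-1- libraries, library 10 was the lowest for both, but the markers were highest in library 16 and S1pr3 in library 8. The part of these markers in the S1pr3 difference was not tested.

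S1pr2 (ENSMUSG00000043895, chromosome 9 from 20962361 to 20976781), which signals through G12/13 and restrains cell migration, ran the other way. It was at 8.998, 6.57, 4.42 and 1.97 CPM in Sca-1+ libraries 7, 13, 15 and 19 and at 29.8, 47.6, 17.8, 11.6 and 12.6 CPM in Sca-1- libraries 8, 10, 14, 16 and 22. No Sca-1+ library reached the lowest Sca-1- library. S1pr2 was 4.34-fold lower in Sca-1+ ECs (log2 fold change -2.12 with a standard error of 0.56, edgeR adjusted p = 0.011), with the same direction and call under every alternative run. Across Sca-1- libraries S1pr2 followed the order of the summed megakaryocyte and platelet markers (10, 8, 14, 22, 16 from high to low). Libraries 10 and 8 also had the smallest TMM factors, 0.581 and 0.671, which raise the CPM of every gene in them. Among Sca-1+ libraries the orders differed, as library 7 was the highest for S1pr2 and library 13 for the summed markers (83.4 CPM), with library 19 the lowest for both. The part of these markers in the S1pr2 difference was not tested.

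S1pr4 (ENSMUSG00000044199, chromosome 10 from 81497747 to 81500132), a receptor of blood and lymphoid cells, was at 6.68, 6.91, 6.77 and 9.18 CPM in Sca-1+ libraries 7, 13, 15 and 19. It spread widely in Sca-1- libraries 8, 10, 14, 16 and 22, at 0.901, 2.72, 4.24, 17.4 and 5.09 CPM. Sca-1- library 16 was above and the 4 other Sca-1- libraries were below all Sca-1+ libraries. The difference did not pass the test (log2 fold change 0.28 with a standard error of 0.68, edgeR adjusted p = 0.76) and changed sign with the libraries included. The order of the libraries by the 8 general leukocyte markers depended on the measure. By mean log2 CPM library 16 was the highest Sca-1- library (7.70 against 5.98 to 6.65) and library 19 the highest Sca-1+ library (3.06 against -0.40 to 1.13), as for S1pr4, whereas by summed CPM library 16 (2623) was below library 8 (3185) and library 10 (2790), where S1pr4 was lowest. The part of these markers in the level of S1pr4 was not tested. S1pr5, the remaining receptor of the family, had 0 counts in all 9 libraries, which allows no more than 0.0996 to 0.209 CPM by library.

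Within each library the receptors were also set against each other as shares of their summed counts per kilobase of exon, a measure that does not depend on how libraries are scaled. S1pr1 made up 90.9%, 96.96%, 90.6% and 88.4% of the 4 receptors in Sca-1+ libraries 7, 13, 15 and 19. In Sca-1- libraries 8, 10, 14, 16 and 22 it made up 60.7%, 35.1%, 70.1%, 65.0% and 80.0%. S1pr1 was therefore the most abundant receptor in 8 of 9 libraries, the exception being library 10, where S1pr2 held 43.8%. The share of S1pr2 was 0.0695% to 0.525% in Sca-1+ and 4.42% to 43.8% in Sca-1- libraries, without overlap. The share of S1pr4 was 1.08% to 1.44% in Sca-1+ libraries and 1.42% to 22.2% in Sca-1- libraries, and that of S1pr3 overlapped, at 1.32% to 10.4% and 7.28% to 23.8%.

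**Figure D2:**
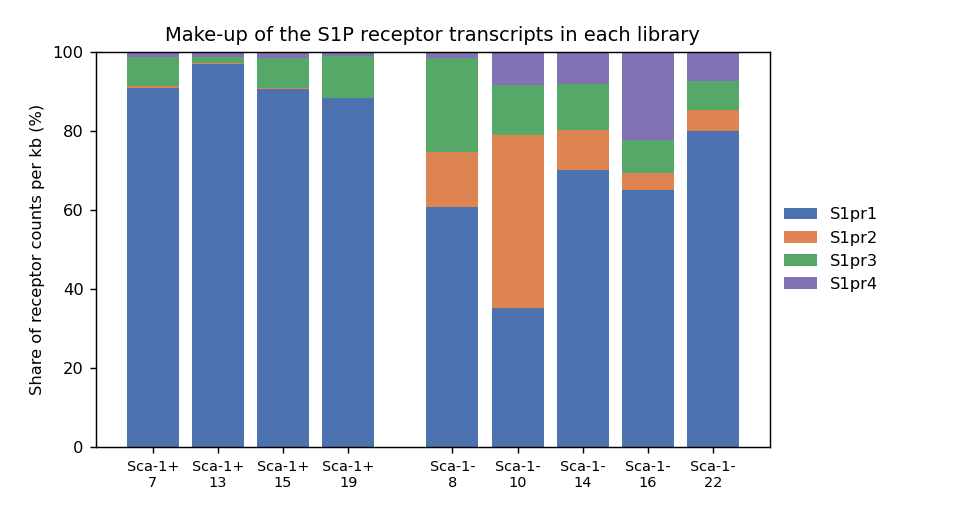
Share of S1pr1, S1pr2, S1pr3 and S1pr4 in their summed counts per kilobase of exon (%, stacked to 100), 1 bar a library, Sca-1+ on the left and Sca-1- on the right. S1pr1 takes 88.4% to 96.96% of each Sca-1+ bar, whereas Sca-1- bars are mixed and S1pr2 is the largest part in library 10.

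The DNA windows at the starts of S1pr2 and S1pr3, the receptors called in opposite directions besides S1pr1, are shown for comparison, 250 bases upstream of the RefSeq start on GRCm38.p6, 5′ to 3′ on the strand of the gene. S1pr2 lies at chr9:20976794-20977043 on the minus strand and S1pr3 at chr13:51408368-51408617 on the plus strand. Capitals mark a match, on either strand, to 1 of 3 motifs searched, namely AGATAA for the GATA factors, then CCGGAA for the Ets factors, and lastly CCACCC for the Krüppel-like factors, and each printed sequence holds 1 match.
S1pr2, upstream window: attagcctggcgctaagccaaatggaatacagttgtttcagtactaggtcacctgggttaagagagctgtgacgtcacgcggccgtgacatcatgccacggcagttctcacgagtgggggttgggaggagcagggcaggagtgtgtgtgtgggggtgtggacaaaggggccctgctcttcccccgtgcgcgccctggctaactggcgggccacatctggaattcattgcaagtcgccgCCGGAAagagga
S1pr3, upstream window: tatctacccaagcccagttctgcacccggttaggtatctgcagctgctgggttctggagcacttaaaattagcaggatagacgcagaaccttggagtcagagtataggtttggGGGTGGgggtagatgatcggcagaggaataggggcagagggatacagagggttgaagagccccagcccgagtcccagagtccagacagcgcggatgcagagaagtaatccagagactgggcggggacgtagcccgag
The S1pr2 window held 1 match to CCGGAA, at position -12 from the start, and the S1pr3 window 1 match to CCACCC, on the opposite strand at position -137. Of all 32851 RefSeq windows of 300 bases, 14.9% held CCGGAA, 31.5% CCACCC and 11.2% AGATAA. Such matches describe letters and not bound sites. Windows were found for 8 of the 9 genes, S1pr1 not being among them.

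Of the enzymes that make S1P, Sphk1 (ENSMUSG00000061878, chromosome 11 from 116530925 to 116536674), the cytosolic and inducible kinase, was at 11.0, 14.2, 8.46 and 19.9 CPM in Sca-1+ libraries 7, 13, 15 and 19. It was at 31.5, 31.1, 51.0, 110 and 39.9 CPM in Sca-1- libraries 8, 10, 14, 16 and 22. In CPM the fractions did not overlap, and library 16 stood highest, as it did for S1pr4. They overlapped in counts per kilobase of exon scaled to the same sum in every library (TPM). By TPM, Sca-1+ library 19 (13.6) was above Sca-1- libraries 8 (12.5) and 10 (11.1), the libraries with the smallest TMM factors. Sphk1 was 3.94-fold lower in Sca-1+ ECs (log2 fold change -1.98 with a standard error of 0.44, edgeR adjusted p = 0.0046). Sphk2 (ENSMUSG00000057342, chromosome 7 from 45709467 to 45718002), the kinase found in the nucleus and mitochondria, was at 23.4, 17.6, 23.4 and 28.7 CPM in Sca-1+ libraries and at 78.1, 156, 40.6, 43.7 and 41.0 CPM in Sca-1- libraries, in the same order. In CPM no libraries overlapped for Sphk2 either, and here library 10 stood highest. Sphk2 was 3.09-fold lower in Sca-1+ ECs (log2 fold change -1.63 with a standard error of 0.44, edgeR adjusted p = 0.012).

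Both kinases kept their direction and call under every alternative run. Their values are uncertain in one respect, since strand use in counting is not stated and exons of both overlap genes on the opposite strand, Gm29292 for Sphk1 and Rpl18 and Dbp for Sphk2. Gm29292 was at a mean of 0.637 CPM in Sca-1+ and 1.07 CPM in Sca-1- ECs. Rpl18 was at 64.4 ± 7.64 CPM (SD, n = 4) in Sca-1+ and 62.4 ± 15.2 CPM (SD, n = 5) in Sca-1- ECs, and Dbp at 22.3 ± 9.62 and 8.04 ± 2.62 CPM, so neither of these was called lower in Sca-1+ ECs. Which kinase led varied by library within the Sca-1- fraction. Per kilobase of exon, the log2 ratio of Sphk1 to Sphk2 was -1.67 to -0.50 in Sca-1+ libraries and -1.51, -2.53, 0.13, 1.13 and -0.24 in Sca-1- libraries 8, 10, 14, 16 and 22. Sphk2 was thus ahead in all 4 Sca-1+ libraries and in 3 of 5 Sca-1- libraries, and the ranges overlapped.

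Sgpl1 (ENSMUSG00000020097, chromosome 10 from 61098642 to 61147703), the lyase, was at 45.1, 17.2, 22.2 and 22.3 CPM in Sca-1+ libraries 7, 13, 15 and 19. It was at 14.1, 5.52, 15.9, 23.5 and 11.2 CPM in Sca-1- libraries 8, 10, 14, 16 and 22. The fractions overlapped through libraries 13, 15 and 19 on one side and library 16 on the other. The difference did not pass the test (log2 fold change 0.92 with a standard error of 0.42, edgeR adjusted p = 0.096), and without library 16 it did (1.18, adjusted p = 0.040). Within a library, the kinases together stood at 1.08 to 3.05 times Sgpl1 per kilobase of exon in Sca-1+ libraries and at 7.89 to 49.1 times in Sca-1- libraries. The fractions did not overlap in this ratio, and library 10 held its upper end.

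Among the exporters, Spns2 (ENSMUSG00000040447, chromosome 11 from 72451638 to 72489904), the endothelial exporter, was at 134, 130, 121 and 209 CPM in Sca-1+ libraries 7, 13, 15 and 19. It was at 124, 43.0, 60.4, 67.9 and 90.3 CPM in Sca-1- libraries 8, 10, 14, 16 and 22. In CPM, library 8 lay just above Sca-1+ library 15, and the other Sca-1- libraries were below all Sca-1+ libraries. That overlap depends on the scaling, as TPM was 99.9 to 168 in Sca-1+ and 17.9 to 74.1 in Sca-1- libraries. Spns2 was 1.93-fold higher in Sca-1+ ECs (log2 fold change 0.95 with a standard error of 0.31, edgeR adjusted p = 0.031) but stood at a log2 fold change of -3.16 with the endothelial markers as the reference. The call rested on most of the libraries, since it was lost without Sca-1+ library 7 or 19 or Sca-1- library 10, 14 or 16 (adjusted p = 0.053, 0.099, 0.070, 0.083 and 0.060), and also with DESeq2's size factors (adjusted p = 0.062). Exons of Spns2 overlap Mybbp1a on the opposite strand, at 51.5 ± 8.41 CPM (SD, n = 4) in Sca-1+ and 97.2 ± 47.9 CPM (SD, n = 5).

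Spns2 differed less between the fractions than the called endothelial markers did. Per kilobase of exon it stood at 0.421 to 0.783 of Cdh5 in Sca-1+ libraries and at 5.31 to 18.1 times Cdh5 in Sca-1- libraries, with no overlap. While the 13 called of 15 endothelial markers had log2 fold changes of at least 3.21, Spns2 had 0.95. The 3 genes whose log2 CPM most resembled that of Spns2 over the 9 libraries were Chp2, B930095G15Rik and Dusp8 (Pearson's r = 0.971, 0.967 and 0.960), values that share the difference between the fractions and the scaling of the libraries.

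Mfsd2b (ENSMUSG00000037336, chromosome 12 from 4862440 to 4874359), the exporter of red cells and platelets, was at 1.16, 3.75, 2.69 and 4.26 CPM in Sca-1+ libraries 7, 13, 15 and 19, from 34 to 110 counts. It was at 1978, 2239, 1091, 569 and 893 CPM in Sca-1- libraries 8, 10, 14, 16 and 22. The gap between the fractions was far wider than the spread within either. Mfsd2b was 456-fold lower in Sca-1+ ECs (log2 fold change -8.83 with a standard error of 0.70, edgeR adjusted p = 2.1e-05), and 98.75% of the genes tested had a smaller or equal absolute log2 fold change. Direction and call were the same under every alternative run.

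Like Mfsd2b, the 12 megakaryocyte and platelet markers were all lower in Sca-1+ ECs, with none at 0 throughout a fraction. Across Sca-1- libraries the order of Mfsd2b in CPM (10, 8, 14, 22, 16 from high to low) was that of their summed CPM (101727, 81745, 50126, 33688 and 24389). Both series carry the TMM factors, smallest in libraries 10 and 8 (0.581 and 0.671). By TPM, Mfsd2b was higher in library 22 (582) than in library 14 (559). Among Sca-1+ libraries the orders differed, as library 19 was the highest for Mfsd2b (4.26 CPM) and the lowest for the summed markers (30.2 CPM). Per kilobase of exon, Pf4, a platelet chemokine, stood at 28.8 to 49.1 times Mfsd2b in Sca-1- libraries and at 8.37 to 79.4 times in Sca-1+ libraries, so the ratio overlapped between the fractions although both genes differed by a log2 fold change of over 8 (-8.86 for Pf4). Of 12 erythroid markers 8 were lower in Sca-1+ ECs, and 5 of the 12 were lower without overlap. The sum over the markers was 107 to 238 CPM in Sca-1+ against 689 to 2432 CPM in Sca-1- libraries. Slc4a1, the anion exchanger of red cells, had a log2 fold change of -3.88 but overlapped between the fractions. Sca-1- libraries 14 and 16 were at 0.721 and 0.598 CPM, below Sca-1+ library 7 at 0.750 CPM. The genes most like Mfsd2b over the 9 libraries were I830077J02Rik, Rgs18, a regulator of G protein signalling in platelets, and Stx11, a syntaxin of platelet secretion (r = 0.999, 0.998 and 0.997). As for Spns2, these values share the difference between the fractions and the scaling of the libraries. The part of megakaryocytes, platelets and red cells in the Mfsd2b difference was not tested.

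Set against each other within a library, the exporters changed places. The log2 ratio of Spns2 to Mfsd2b, per kilobase of exon, was 7.18, 5.45, 5.83 and 5.95 in Sca-1+ libraries 7, 13, 15 and 19 and -3.66, -5.37, -3.84, -2.73 and -2.97 in Sca-1- libraries 8, 10, 14, 16 and 22. In linear terms Spns2 stood at 43.6 to 145 times Mfsd2b in the former, and Mfsd2b at 6.65 to 41.3 times Spns2 in the latter. Spns2 thus led in 4 of 4 Sca-1+ libraries and Mfsd2b in 5 of 5 Sca-1- libraries. The mean log2 ratio was 6.10 ± 0.75 (SD, n = 4) and -3.72 ± 1.03 (SD, n = 5), a difference of 9.82 that does not depend on how libraries are scaled.

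**Figure D3:**
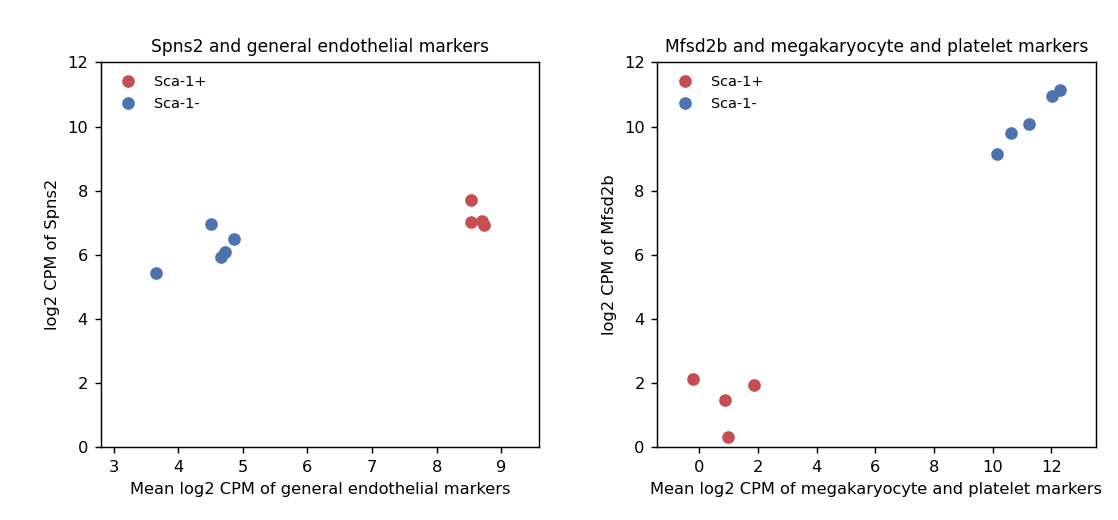
Left, log2 CPM of Spns2 against the mean log2 CPM of 15 general endothelial markers. Right, log2 CPM of Mfsd2b against the mean log2 CPM of 12 megakaryocyte and platelet markers, 1 point a library (red Sca-1+, blue Sca-1-). Endothelial markers fall from between 8.53 and 8.73 in Sca-1+ to between 3.65 and 4.86 in Sca-1- libraries. Spns2 moves less, from between 6.92 and 7.71 to between 5.43 and 6.95, whereas Mfsd2b and its markers both separate the fractions.

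The upstream windows of the exporters are shown because they are the pair on which the contrast turns. Spns2 lies at chr11:72475028-72475277 and Mfsd2b at chr12:4874360-4874609 (GRCm38.p6, RefSeq), both on the minus strand and printed 5′ to 3′ on the strand of the gene, with motif matches in capitals as above. The RefSeq start of Spns2 lies inside the longer gene of the GENCODE annotation.
Spns2, upstream window: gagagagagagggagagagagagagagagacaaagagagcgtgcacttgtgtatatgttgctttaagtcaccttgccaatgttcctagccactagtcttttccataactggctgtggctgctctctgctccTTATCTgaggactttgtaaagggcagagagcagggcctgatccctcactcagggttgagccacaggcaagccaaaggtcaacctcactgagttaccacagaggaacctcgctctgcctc
Mfsd2b, upstream window: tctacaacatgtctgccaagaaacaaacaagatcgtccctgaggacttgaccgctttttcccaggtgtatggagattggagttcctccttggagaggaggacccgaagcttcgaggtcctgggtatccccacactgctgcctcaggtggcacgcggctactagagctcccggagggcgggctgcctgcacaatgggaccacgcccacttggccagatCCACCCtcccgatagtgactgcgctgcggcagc
The Spns2 window held 1 match to AGATAA, on the opposite strand at position -119 from the start, and no other motif. Within its 300 bases the Mfsd2b window held 2 matches to CCACCC, at positions -33 and 43 of which the printed bases hold the first, and none to AGATAA. The windows also differed in CpG content, with 2 CpG dinucleotides in 300 bases for Spns2 and 15 for Mfsd2b, where the median of all windows was 7. Among the other genes Sgpl1 had 38, Sphk2 27 and 33 in its 2 windows and S1pr4 had 1.

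**Figure D4:**
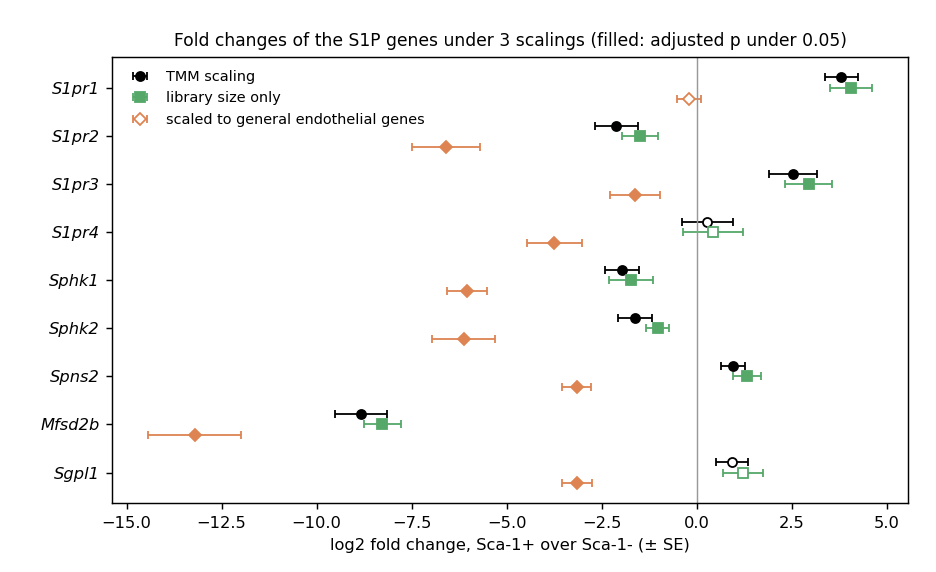
Log2 fold change (Sca-1+ over Sca-1-, with its standard error) of the 9 genes from edgeR's test with TMM scaling (black circles), library size only (green squares) and scaling to the general endothelial genes (orange diamonds), filled where the adjusted p was under 0.05. S1pr1, S1pr3, S1pr4, Spns2 and Sgpl1 lie to the right of 0 under the first 2 scalings and to the left under the third, S1pr1 at -0.21, whereas S1pr2, both kinases and Mfsd2b lie to the left under all 3.

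Levels of different genes were compared per length, as counts per kilobase of exon scaled to the same sum in every library (TPM). In Sca-1+ ECs the order was S1pr1 (761 ± 186 TPM; SD, n = 4), Spns2 (123 ± 30.4), S1pr3 (59.5 ± 46.3), Sphk2 (18.99 ± 3.41), Sgpl1 (14.9 ± 7.60), S1pr4 (10.5 ± 1.40), Sphk1 (9.49 ± 3.23), S1pr2 (2.38 ± 1.37) and Mfsd2b (1.94 ± 0.856). Of these 8 neighbouring pairs only S1pr1 with Spns2 and Sphk1 with S1pr2 did not overlap. In Sca-1- ECs Mfsd2b led at 591 ± 159 TPM (SD, n = 5), clear of Spns2 (48.1 ± 21.1), and none of the 7 neighbouring pairs after it was clear, from S1pr1 (44.9 ± 28.3), Sphk2 (38.2 ± 14.8) and Sphk1 (30.4 ± 24.8) to S1pr4 (7.47 ± 8.95), S1pr3 (7.46 ± 3.28), S1pr2 (6.59 ± 2.19) and Sgpl1 (6.17 ± 3.86). The gene at the bottom of the Sca-1+ order was thus the top of the Sca-1- order.

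Around these genes, 62 others of S1P and sphingolipid handling were followed in 8 lists written by hand. Of the 52 tested, 24 were higher and 15 lower in Sca-1+ ECs, beside 23.3% and 21.4% of all genes tested, and their median log2 fold change was 0.45 against 0.07 over all genes. Every direction in the following paragraphs is relative to TMM scaling, and with the endothelial markers as the reference only 1.72% of all calls were higher in Sca-1+ ECs. Exons of Sgpp2, Cers4, Cerk and Foxo1 overlap genes on the opposite strand, so their counts carry the uncertainty given for Sphk2, and those of Arrb2 share bases with a microRNA gene on the same strand.

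Among phosphatases that act on S1P and related lipid phosphates, 4 of 5 were higher and 1 lower. Plpp3, a surface phosphatase that degrades S1P and lysophosphatidic acid (LPA), was at 883 ± 65.1 CPM (SD, n = 4) in Sca-1+ and 93.2 ± 39.1 CPM (SD, n = 5) in Sca-1- ECs (log2 fold change 3.25 with a standard error of 0.30, edgeR adjusted p = 4.2e-05). Sgpp2, an S1P phosphatase of the endoplasmic reticulum, was at 7.29 ± 4.22 and 0.587 ± 0.410 CPM (3.62, adjusted p = 0.0026), whereas its paralog Sgpp1, at 26.9 ± 8.35 and 56.2 ± 19.7 CPM, was the one that was lower (-1.07, adjusted p = 0.023). Of 7 related receptors, S1pr5 and 6 for LPA, 4 were tested, 2 of them higher and 1 lower. Lpar4 was at 22.6 ± 8.38 and 1.82 ± 1.15 CPM (3.63, adjusted p = 3.8e-04), and Lpar3 was at 23.1 ± 13.9 CPM in Sca-1- ECs and at no more than 2 counts in any Sca-1+ library (adjusted p = 4.5e-05).

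Of the 8 ceramidases and ceramide synthases tested, of 11, 5 were higher and 1 lower. Asah2, the neutral ceramidase that frees sphingosine, was at 8.76 ± 3.01 and 0.938 ± 0.477 CPM (log2 fold change 3.21, adjusted p = 4.0e-04), and the ceramide synthase Cers4 was at 112 ± 19.9 and 14.9 ± 6.89 CPM (2.90, adjusted p = 1.2e-04). Of 9 genes of de novo synthesis tested, of 11, 5 were higher and 2 lower. Degs1, the desaturase that yields ceramide, was at 501 ± 40.8 and 101 ± 36.02 CPM (2.31, adjusted p = 2.2e-04), and Ormdl3, which restrains the first step of the pathway, was at 61.1 ± 12.03 and 782 ± 649 CPM (-3.68, adjusted p = 9.0e-04). Of 10 genes of sphingomyelin, glucosylceramide and ceramide phosphate, 3 were higher and 2 lower, the latter being Sgms2, a sphingomyelin synthase (4.69 ± 2.37 and 40.1 ± 32.2 CPM, -3.09, adjusted p = 0.0029), and Cerk, the ceramide kinase (34.3 ± 6.52 and 242 ± 183 CPM, -2.82, adjusted p = 0.0023).

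Of 3 genes tested among the transporter paralogs, the S1P carrier Apom and the enzyme that takes up the product of the lyase, 1 was higher and 2 lower. Spns3, a paralog of Spns2, was at 14.4 ± 10.7 CPM in Sca-1- ECs and at no more than 6 counts in a Sca-1+ library (adjusted p = 6.4e-04), and Aldh3a2, which oxidizes the aldehyde left by the lyase, was at 74.3 ± 14.7 and 21.8 ± 8.56 CPM (log2 fold change 1.77, adjusted p = 0.0011). The G protein subunits through which S1P receptors signal split evenly, with 2 of 7 higher and 2 lower. Gna11 was at 146 ± 13.4 and 19.3 ± 5.74 CPM (2.91, adjusted p = 3.5e-05) and its close relative Gnaq at 57.3 ± 13.7 and 264 ± 221 CPM (-2.20, adjusted p = 0.013), while Gnai2, through which S1pr1 acts, was at 1356 ± 69.8 and 1049 ± 269 CPM and did not pass the test (adjusted p = 0.26). Of 6 regulators of S1pr1, 2 were higher and 4 lower. Klf2, a transcription factor that drives S1pr1 in lymphocytes, and Foxo1, which acts upstream of it, were those higher, and Cd69, which pulls S1pr1 from the surface, was among those lower, with Arrb2, the arrestin that follows receptor activation (31.2 ± 5.86 and 571 ± 293 CPM, -4.19, adjusted p = 5.8e-05). Cd69 was at 23.4 ± 15.03 CPM in Sca-1- ECs and at 0 to 24 counts in Sca-1+ libraries (adjusted p = 0.0015).

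**Figure D5:**
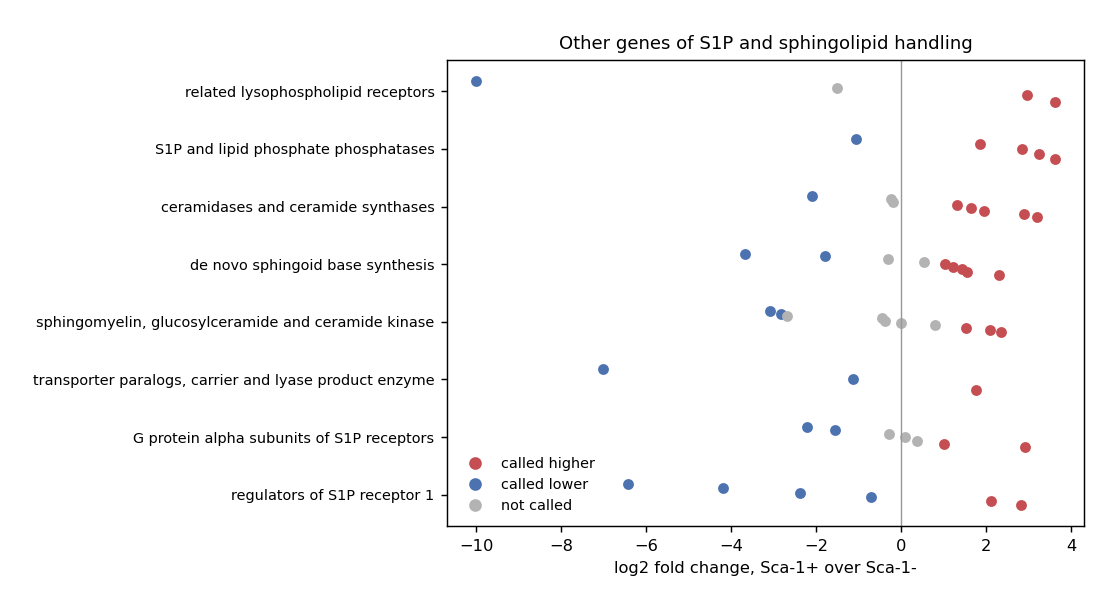
Log2 fold change (Sca-1+ over Sca-1-, TMM scaling) of the 52 tested genes of 8 hand-written lists of S1P and sphingolipid handling, 1 point a gene, red where called higher, blue where called lower and grey where not called. Phosphatases, ceramidases and de novo synthesis lie mostly to the right of 0 with TMM scaling, with 4 of 5, 5 of 8 and 5 of 9 called higher.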

How the data were processed

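Read counts per Ensembl gene for 9 libraries of sorted BM ECs were deposited by the authors as 1 table of raw, unnormalized counts. The submitters' processing notes name STAR, featureCounts and the mm10 build; versions, gene annotation and strand setting are not given in the sources used here. Groups came from the labels of the sorted cells, and all 9 count columns were used.

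Counts were analysed with edgeR 4.0.16 in R 4.3.3 (filterByExpr at its settings of 10 counts and 15 in total, TMM, quasi-likelihood F-test, two-sided, Benjamini-Hochberg adjustment over all 15937 genes tested, threshold 0.05). The biological coefficient of variation was 0.549. Standard errors came from the F statistic, and a prior count of 2 was used for log2 CPM. The test was first tried on simulated counts. limma 3.58.1 and DESeq2 1.42.0 served as alternatives. No 2 libraries of a fraction were copies (chi-square per degree of freedom 40.0 to 585).

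The number that ends a label served as the replicate name. Settings varied were scaling, filter, tool and the libraries included. The S1P genes, the lists and the tests were chosen with earlier results of these data known. Named beyond the S1P genes were the 2 genes of each list with the largest absolute log2 fold change that were called, averaged a log2 CPM of 1 or more and did not overlap between fractions, the 3 genes most correlated with Spns2 and with Mfsd2b, and checks of the sort, of which 1 is not reported here. Markers, overlap partners, Gnai2, Klf2, Foxo1 and Sgpp1 were named outside that rule after their values were seen. All 174 listed symbols matched a gene, 4 by identifier under an older symbol. Exon lengths and coordinates came from GENCODE M21 (GRCm38), which lacks 935 of the deposited identifiers, and windows from RefSeq. Protein sequences were not used here. Plots used matplotlib 3.10.9 in Python 3.11.15.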

Additional observations from a re-analysis of the deposited data

Results flagged for a closer look

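Dixon's gap test, applied to each measure within each fraction, singled out 1 library in 6 of 92 sets, where chance gives about 1 in 20. No cause of these was tested. In Sca-1- library 10 the log2 CPM of S1pr1 was 3.88, against 5.54 to 6.16 in the other Sca-1- libraries. The log2 ratio of both kinases to Sgpl1 was 5.62 in the same library, against 2.98 to 3.47, and its S1pr2 share of receptor counts was 43.8%, against 4.42% to 14.1%. In Sca-1+ library 19 the log2 CPM of S1pr4 was 3.21, against 2.76 to 2.81 in the other Sca-1+ libraries. The mean log2 CPM of the B and plasma cell markers in that library was 5.9e-04, against -2.86 to -2.64. The log2 CPM of Lpar3 was -2.74 in Sca-1+ library 15, from 2 counts, and -3.63 in the other Sca-1+ libraries, from 0 counts.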

How the results depend on the processing

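Log2 fold changes of the 9 genes and counts of called genes were recomputed under 9 other settings, 9 fits that each left out 1 library and 3 fits on fewer libraries. S1pr2, Sphk1, Sphk2 and Mfsd2b kept direction and call in all 21. Scaling to the general endothelial genes gave -0.21 for S1pr1, -1.62 for S1pr3, -3.75 for S1pr4, -3.16 for Spns2 and -3.16 for Sgpl1, with 0 of the 9 genes higher and 8 lower, and 14203 genes called in all, 244 higher (1.72%) and 13959 lower; by construction it sets to about 0 genes that differ like these markers. The share of calls that were higher was 52.1% with TMM and 63.1% with library size only. Spns2 was 0.84 (adjusted p = 0.062) with DESeq2's size factors. Leaving out 1 library gave 0.73 to 1.11 for Spns2, 1.86 to 2.88 for S1pr3, called in each, -0.068 to 1.18 for S1pr4, negative without library 8, and 0.55 to 1.18 for Sgpl1. Without Sca-1+ 19 and Sca-1- 10, S1pr3 was 1.64 (adjusted p = 0.070), Spns2 0.53 (0.18) and S1pr4 -0.073, with 1 gene higher.

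The deviations of libraries with consecutive end numbers correlated at 0.147, 0.148 and 0.042, against -0.191 to 0.065 for the other pairs across the fractions. Each of these libraries correlated best with its neighbour. As the labels do not explain the numbers, the main test did not pair the samples, and its p-values leave any pairing out of account. Only 15 and 16 also share a further number in their titles, and that pair had the lowest of the 3 correlations. With that replicate block, 6 libraries gave 4340 called genes (2265 higher and 2075 lower) against 7137 in the 9 and 5360 in the same 6 without the block, 1 S1P gene higher, S1pr3 at 1.32 (adjusted p = 0.11) and Spns2 at 0.68 (0.15). Without the block, they gave 1.53 (0.13), 0.61 (0.18), S1pr4 at -0.15 and 1 gene higher. S1pr3 and Spns2 were thus called neither with nor without the block, and the cause was not tested. Raw counts in place of counts per kilobase moved Sphk2, Sgpl1, S1pr4 and Sphk1 by 1 rank in Sca-1+ and changed the rank of 7 of 9 genes in Sca-1- ECs. Depth limits S1pr5, Lpar3, Spns3 and Cd69, which reached 0 counts in at least 1 Sca-1+ library.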
